A study of Mus musculus with 6 samples.

Results

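The genes described here are 4 Notch receptors (Notch1, Notch2, Notch3 and Notch4), 4 of their ligands (Jag1, Jag2, Dll1 and Dll4) and 2 of their target genes (Hey1 and Hes1), 10 genes chosen by name among the 54532 genes of the deposited count table. All 10 names were found there, and 9 of the 10 had enough counts to be tested. Transcripts were counted in mouse endothelial cells (the inner lining of vessels) in culture, 72 h after exposure to lentivirus. The control group (n = 3 libraries) received an empty vector and the RBPMS group (n = 3 libraries) received a vector for overexpression of RBPMS, an RNA-binding protein that takes part in pre-mRNA splicing. Both groups thus carry lentivirus and were grown in medium with 10% serum. Not given in the sources used here are the strain, the organ of origin, the promoter of the vector and whether replicates were separate cultures. The p-values therefore measure the spread between these libraries, which may be technical. Values per library are listed in the order of replicates 1, 2 and 3 of a group.

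Notch receptors are single-pass membrane proteins that are activated by ligands on a neighbouring cell. Binding and pulling by a Delta-like (Dll) or Jagged (Jag) ligand exposes the receptor to ADAM proteases and then to gamma-secretase, and the freed intracellular domain enters the nucleus, where it joins RBPJ and Mastermind-like proteins and switches on genes of the Hes and Hey families of repressors. In endothelium, Dll4 acting on Notch1 restrains sprouting and favours arterial identity, and Jag1 can oppose Dll4 where receptors carry sugars added by Fringe enzymes.

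Total counts were 15779567 to 23076124 per library, with 19799 to 21087 genes detected. Levels are in CPM, a count scaled to the size of its library, here with TMM factors. Rbpms itself had 57.0, 56.8 and 55.1 CPM in controls and 131, 147 and 133 CPM with RBPMS, so the targeted gene followed the labels in every library. The 10 endothelial markers, led by Vwf, summed to 15432 to 20154 CPM in controls and 17186 to 18131 CPM with RBPMS. The lowest control was replicate 3, and controls 1 and 2 (19492 and 20154 CPM) lay above all RBPMS libraries. Over 5 libraries, 2 of the 10 fell, Vwf (0.73-fold, edgeR adjusted p = 1.7e-05) and Kdr (0.87-fold, 0.011), and 2 rose, Erg (1.16-fold, 0.0047) and Emcn (1.12-fold, 0.047). Over 6 libraries 0 of the 10 were called. Markers of mural cells, the usual site of Notch3, summed to 1.01 to 1.73 CPM in controls and 1.17 to 1.70 CPM with RBPMS over 8 genes, with Rgs5 and Kcnj8 at 0 in all libraries. The 6 leukocyte markers summed to 42.5 to 47.2 CPM in controls and 54.8 to 60.0 CPM with RBPMS, without overlap. Of them 2 reached a mean of 1 CPM, Cd68 led the sum with a mean of 49.3 CPM and Adgre1 was at 0 in every library, and without control replicate 3 Cd68 rose 1.26-fold (adjusted p = 0.0054). Of 4 lymphatic endothelial markers Lyve1 made up nearly all of the sum (360 to 479 CPM in controls and 363 to 392 CPM with RBPMS), Pdpn was at 0, and without control replicate 3 Lyve1 fell to 0.83-fold (adjusted p = 0.0020). The 4 mesothelial markers summed to 23.4 to 27.5 CPM in controls and 18.7 to 23.1 CPM with RBPMS, also without overlap. Msln made up most of that sum, with a mean of 20.0 CPM. Without control replicate 3 it was at 0.80-fold with RBPMS (edgeR adjusted p = 0.077). The part of these marker differences in the results was not tested. Control replicate 3 stood apart: its log2 CPM correlated across 13898 genes at 0.959 to 0.965 with the other 5 libraries, which correlated at 0.993 to 0.997 among themselves. Fold changes are therefore given over all 6 libraries and over the 5 libraries without control replicate 3. The test was edgeR's quasi-likelihood test over all genes, and a gene is said to be called, to rise or to fall where its Benjamini-Hochberg adjusted p was under 0.05. Over 6 libraries it called 0 of 13898 genes (0% in either direction), with 1050 at an unadjusted p under 0.05, while limma-voom called 0 and DESeq2 56. Over 5 libraries it called 1022 of 14123 genes (7.24%), of which 538 rose (3.81%) and 484 fell (3.43%).

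Among the 9 tested Notch genes 1 rose and 0 fell over 5 libraries, beside that share of 7.24% of all genes. The gene that rose was Jag1, which encodes the ligand Jagged1. Over 6 libraries 0 of the 9 were called, and 1 of them, Jag1, had an unadjusted p under 0.05, against 1050 of 13898 genes. The median log2 fold change of the 9 genes was 0.056 over 5 libraries and 0.16 over 6, where that of all genes tested was -0.0025 and -0.0083. In 3 of the 9 genes (Notch1, Jag1 and Dll4) all RBPMS libraries lay above all 3 controls, and in 0 all lay below. Over all genes the groups did not overlap in 24.7% (12.1% higher and 12.6% lower with RBPMS). Over 5 libraries the groups separated upward in 4 of the 9 genes, Dll1 being the additional one, and in 37.4% of all genes (18.3% higher and 19% lower).

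**Figure D1:**
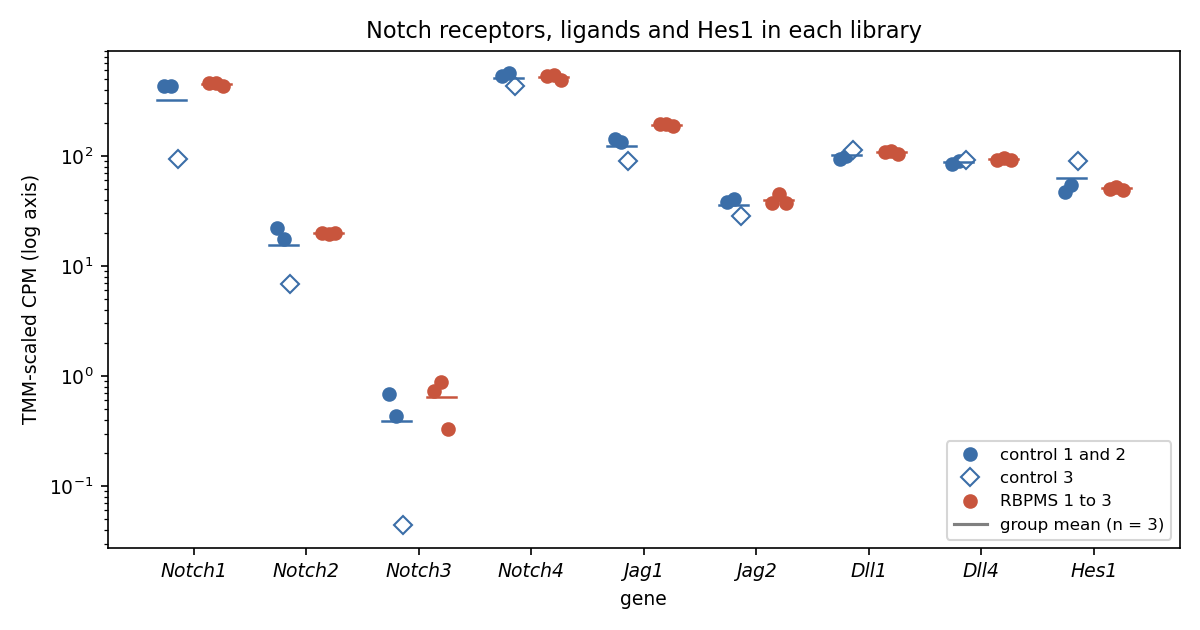
TMM-scaled CPM (log axis) of the 9 tested Notch genes in each library. Each point is a library, open diamonds are control replicate 3 and bars are group means of 3 libraries. Jag1 lies between 187 and 196 CPM with RBPMS and between 90.6 and 142 CPM in controls, and the diamonds of Notch1 and Notch2 lie far below all other points of these genes.

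Jag1 (ENSMUSG00000027276, chromosome 2, 137081456 to 137116644, minus strand, GRCm38) had 2266, 2179 and 2058 counts in the control libraries and 4022, 4201 and 3418 counts in those with RBPMS. On the scaled axis these were 142, 134 and 90.6 CPM in controls and 196, 195 and 187 CPM with RBPMS. All RBPMS libraries were high, and the gap between the lowest of them and the highest control was wider than the range among the RBPMS libraries. Without control replicate 3 Jag1 was 1.40-fold higher (log2 fold change 0.48 ± 0.048 SE, adjusted p = 2.8e-06). It stayed called when any 1 RBPMS library was left out as well. Over all fits with 1 further library left out its log2 fold change was 0.44 to 0.52. Without control replicate 1 or 2 only 1 control remained, so the spread of controls was not measured there. Over all 6 libraries, where control replicate 3 was the lowest of all, the log2 fold change was 0.66 ± 0.18 (SE) with an adjusted p of 0.59. In RNA from whole cultures, more expressing cells and more RNA per cell cannot be told apart.

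RBPMS proteins are known to bind RNA with pairs of the trinucleotide CAC. The 3′ untranslated region of the Jag1-201 transcript (1568 bases, GENCODE M21) held 2 such pairs, searched on the transcript strand as CAC, a gap of 1 to 12 bases of any kind, and CAC. They are shown because Jag1 is the member that changed, with the CAC letters in capitals and read 5′ to 3′ on the minus strand of chr2, GRCm38. The first lies 141 bases after the stop codon at chr2:137082865-137082893, the second 440 bases after it at chr2:137082563-137082591.
Jag1 pair 1: agctggcttcCACtggCACtggtagtttc
Jag1 pair 2: tcagaacCACagcaactatCACaaatgac
Both lie in the first 500 bases of the region, and a pair was found in the first 500 bases of 66.5% of the 8145 tested genes whose annotated region was that long. The density in Jag1 was 1.28 pairs per kb, against a median of 2.06 over those genes. Densities were 1.84 in Notch1, 2.40 in Notch2, 3.0 in Notch3, 1.93 in Notch4, 2.80 in Jag2 and 1.48 in Dll1. Dll4 held 2 pairs in 1329 bases, and Hes1 had 0 pairs in 368 bases. Notch3, Jag2 and Notch2 thus had the highest densities, and none of them was called. In Notch2 and Notch3 0 pairs lay in the first 500 bases. These matches describe letters only, and binding was not tested.

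The other ligands stayed closer to their control levels. Dll1 (ENSMUSG00000014773, chromosome 17, 15367354 to 15376872, minus strand), a Delta-like ligand, had 94.2, 98.9 and 113 CPM in control replicates 1 to 3 and 109, 111 and 104 CPM with RBPMS. Control replicate 3 was the highest of all 6, and the other controls were the lowest. Its log2 fold change was 0.16 ± 0.051 (SE) over 5 libraries, with an adjusted p of 0.062, and 0.079 ± 0.11 (SE) over 6, with an adjusted p of 0.72. Without RBPMS replicate 3 as well it was called (0.19, adjusted p = 0.030).

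Dll4 (ENSMUSG00000027314, chromosome 2, 119325784 to 119335962, plus strand), the Delta-like ligand of arterial and sprouting endothelium, had 85.3, 89.2 and 92.3 CPM in controls and 92.4, 95.4 and 92.6 CPM with RBPMS. The groups did not overlap, but the highest control and the lowest RBPMS library nearly touched. The log2 fold change was 0.10 ± 0.051 (SE) over 5 libraries (adjusted p = 0.27) and 0.072 ± 0.093 (SE) over 6 (adjusted p = 0.71). Jag2 (ENSMUSG00000002799, chromosome 12, 112907819 to 112929776, minus strand), the second Jagged ligand, had 37.9, 40.6 and 28.7 CPM in controls and 37.4, 45.2 and 37.1 CPM with RBPMS. Here the groups overlapped, with log2 fold changes of 0.027 ± 0.087 (SE) over 5 libraries and 0.16 ± 0.16 (SE) over 6 (adjusted p = 0.90 and 0.65).

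A ratio of Jag1 to Dll4 within a library does not depend on library scaling. It can still move with differences between libraries that go with gene length. In control replicate 3, log2 CPM differed from the other controls by -0.61 for Jag1 (5827 bases) and by 0.081 for Dll4 (3852 bases). The part of length in the ratio was not tested. Its numerator is the member called above, so the ratio is not independent of that call. In CPM per kb of deposited gene length, Jag1 stood at 1.10, 0.995 and 0.649 times Dll4 in the controls and at 1.40, 1.35 and 1.34 times Dll4 with RBPMS. All RBPMS libraries had a higher ratio than the highest control. The log2 ratio was 0.61 higher with RBPMS over 6 libraries and 0.38 higher without control replicate 3. Each gave p = 0.1 in a two-sided exact permutation test (n = 3 and 3, and n = 2 and 3), which is the smallest p either design allows. Of the summed level per kb of the 4 ligands, Jag1 made up 32.9%, 30.5% and 22.1% in the controls and 37.9%, 36.8% and 37.3% with RBPMS. The part of Dll1 had a mean of 30.6% in control replicates 1 and 2, was 38.0% in control replicate 3 and was 28.8% ± 0.21 (SD, n = 3) with RBPMS, and that of Dll4 was 29.8%, 30.7% and 34.0% against 27.4% ± 0.47 (SD, n = 3). These parts add to a whole, so a larger part of Jag1 means smaller parts of the others.

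**Figure D2:**
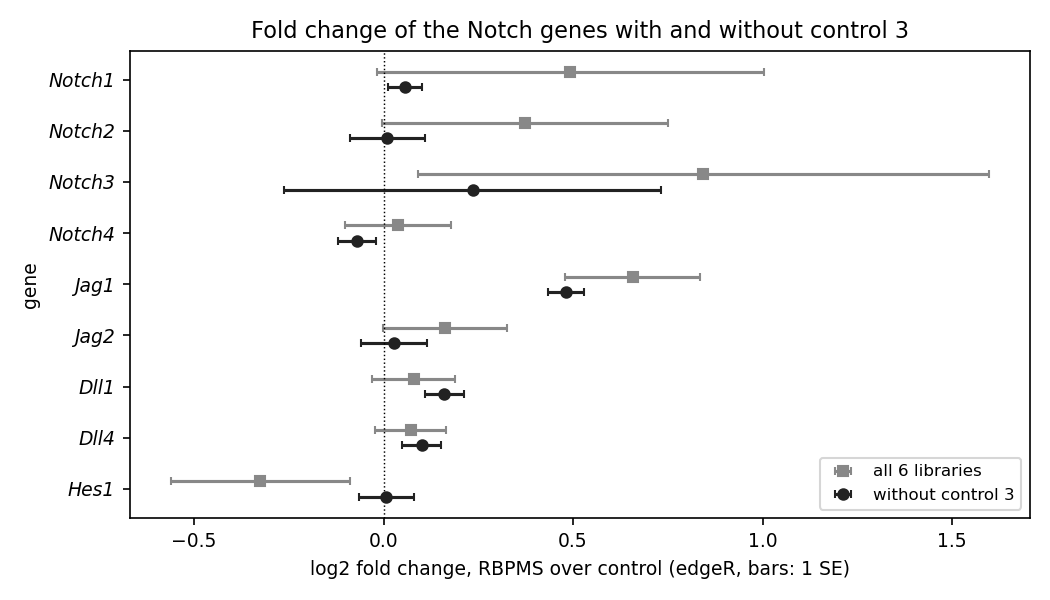
Log2 fold change (RBPMS over control, edgeR, bars are 1 SE) of each tested Notch gene over all 6 libraries (squares) and without control replicate 3 (circles). Jag1 lies at 0.66 and 0.48, and the receptors Notch1 and Notch2 move from 0.49 and 0.37 to 0.056 and 0.010 when control replicate 3 is left out.

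Among the receptors, Notch4 and Notch1 carried nearly all of the signal. Notch4 (ENSMUSG00000015468, chromosome 17, 34564268 to 34588503, plus strand), the receptor largely restricted to endothelium, had 534, 563 and 428 CPM in controls and 533, 543 and 490 CPM with RBPMS. The groups overlapped, with control replicate 3 the lowest. Its log2 fold change was -0.070 ± 0.050 (SE) over 5 libraries (adjusted p = 0.48) and 0.039 ± 0.14 (SE) over 6 (adjusted p = 0.90), so its sign changed with that library.

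Notch1 (ENSMUSG00000026923, chromosome 2, 26457903 to 26516663, minus strand), the main receptor for Dll4 in sprouting vessels, had 6930, 7017 and 2116 counts in the control libraries and 9404, 9815 and 7970 counts in those with RBPMS. In scaled values this was 435, 433 and 93.1 CPM in controls and 459, 456 and 436 CPM with RBPMS. All RBPMS libraries lay above all controls, but control replicates 1 and 2 almost reached the lowest of them while control replicate 3 lay far below. Over 6 libraries the log2 fold change was 0.49 ± 0.51 (SE, adjusted p = 0.66), and without control replicate 3 it was 0.056 ± 0.045 (SE, adjusted p = 0.54). The size over 6 libraries therefore rests on control replicate 3.

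Notch2 (ENSMUSG00000027878, chromosome 3, 98013527 to 98150361, plus strand) had 22.0, 17.5 and 6.82 CPM in controls and 20.0, 19.6 and 20.1 CPM with RBPMS. The RBPMS libraries fell between control replicates 1 and 2, with log2 fold changes of 0.010 ± 0.099 (SE) over 5 libraries and 0.37 ± 0.38 (SE) over 6 (adjusted p = 0.97 and 0.65). Notch3 (ENSMUSG00000038146, chromosome 17, 32120820 to 32166880, minus strand), best known from smooth muscle and pericytes, had only 11, 7 and 1 counts in controls and 15, 19 and 6 counts with RBPMS. At this depth the log2 fold change of 0.23 ± 0.50 (SE, 5 libraries, adjusted p = 0.85) leaves its direction unresolved, and over 6 libraries it was 0.84 ± 0.75 (SE, adjusted p = 0.62).

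Levels in control replicate 3 went with gene length, and Notch1 was lower there than most genes of its length class. Against the mean of the other controls, log2 CPM in that library differed by -2.21 for Notch1 (deposited length 14232 bases), -1.46 for Notch2 (10782), -0.95 for Notch3 (8044), -0.36 for Notch4 (8061), -0.61 for Jag1 (5827), -0.44 for Jag2 (6965), 0.23 for Dll1 (4219), 0.081 for Dll4 (3852) and 0.82 for Hes1 (2037). The long members were lower and the short ones higher. Notch3 had only 1 count in control replicate 3, so the size of its difference is set largely by the pseudocount of 0.5. Among all tested genes split into 5 classes of equal size by length, the median difference was 0.52 in the shortest class and -0.52 in the longest, above 7049 bases. Notch1 and Notch2 lay below that median: in the longest class 0.83% of genes were as low as Notch1 or lower, and 5.58% as low as Notch2 or lower. With a trend on gene length taken out of each of the 6 libraries, the log2 fold change of Notch1 was 0.37 ± 0.34 (SE, adjusted p = 0.61), that of Jag1 was 0.59 ± 0.12 (SE, adjusted p = 0.35) and that of Hes1 was -0.21 ± 0.17 (SE, adjusted p = 0.57). What else sets this library apart was not tested.

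**Figure D3:**
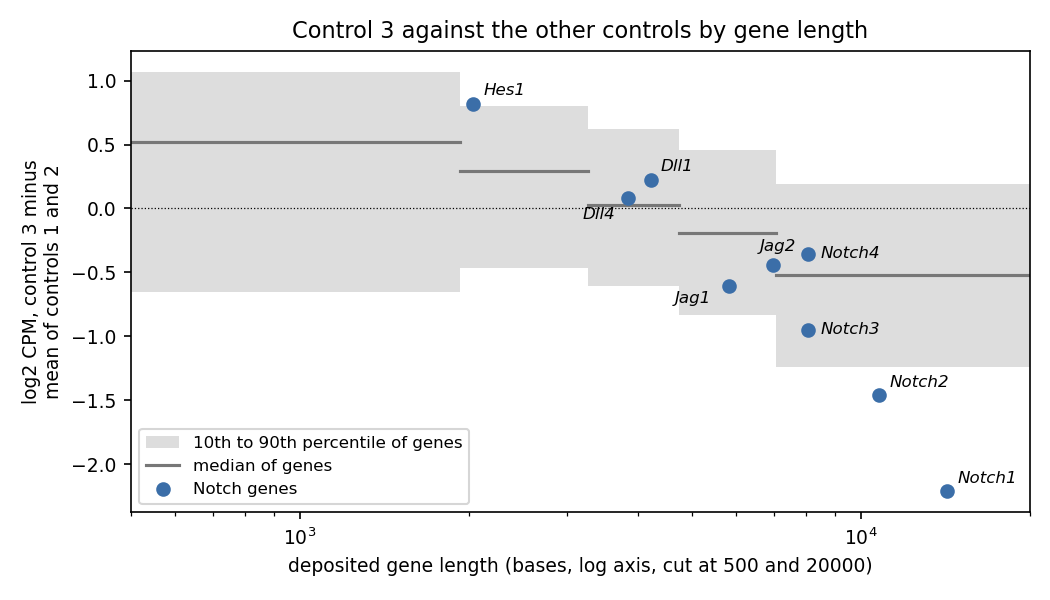
Difference in log2 CPM between control replicate 3 and the mean of control replicates 1 and 2, against deposited gene length (log axis), for the 9 tested Notch genes (points). Grey lines and areas give the median and the 10th to 90th percentile of all tested genes in 5 classes of length, with the shortest and longest genes outside the axis. Notch1 (-2.21) and Notch2 (-1.46) lie below the grey area, and Hes1 (0.82) lies just above it. The point of Notch3 (-0.95) rests on 1 count in control replicate 3 and on the pseudocount.

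Hes1 (ENSMUSG00000022528, chromosome 16, 30064384 to 30067796, plus strand), a repressor of the basic helix-loop-helix family that Notch switches on in many tissues, had 745, 876 and 2025 counts in controls and 1019, 1131 and 904 counts with RBPMS. The levels were 46.8, 54.0 and 89.1 CPM in controls and 49.8, 52.5 and 49.5 CPM with RBPMS. All RBPMS libraries lay between control replicates 1 and 2, and control replicate 3 was the highest. The log2 fold change was 0.0075 ± 0.072 (SE) over 5 libraries (adjusted p = 0.97) and -0.32 ± 0.24 (SE) over 6 (adjusted p = 0.60), so it turned negative with control replicate 3 included. Hey1 (ENSMUSG00000040289, chromosome 3, 8663359 to 8667256, minus strand), a related repressor and a common readout of endothelial Notch activity, had 0, 2 and 2 counts in controls and 1, 0 and 0 counts with RBPMS. It was not tested, and at 3 counts or fewer per library a difference between groups was not detectable at this depth.

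Within a library, levels of different genes can be set in order only per length. Per kb of deposited gene length, the means of control replicates 1 and 2 were 68.1 CPM per kb for Notch4, 30.5 for Notch1, 24.7 for Hes1, 23.7 for Jag1, 22.9 for Dll1, 22.6 for Dll4, 5.63 for Jag2, 1.83 for Notch2 and 0.070 for Notch3. Hes1, Jag1, Dll1 and Dll4 overlapped in these 2 libraries. With RBPMS the means were 64.8 ± 3.53 for Notch4, 33.1 ± 0.86 for Jag1, 31.7 ± 0.87 for Notch1, 25.6 ± 0.83 for Dll1, 24.8 ± 0.83 for Hes1 and 24.3 ± 0.43 CPM per kb for Dll4 (SD, n = 3), with Jag1 overlapping Notch1 and no longer Dll1. Deposited lengths are longer than single transcripts, most of all for Notch1 (14232 bases against 9488 in Notch1-201) and Hes1 (2037 against 1468 in Hes1-201). With the lengths of single annotated transcripts Jag1 stood at 24.6 CPM per kb in control replicates 1 and 2 and 34.4 with RBPMS, Dll1 at 27.0 and 30.1, Dll4 at 23.3 and 24.9, Hes1 at 34.3 and 34.5, and Notch1 at 45.7 and 47.5. On that scale Jag1 no longer overlapped Notch1 with RBPMS but overlapped Hes1, and Jag1 again stood above Dll1 and Dll4 with RBPMS.

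The rest of the pathway was read from 67 genes in 7 lists, of which 56 had enough counts to be tested. Over 5 libraries 6 rose and 3 fell, 9 of 56 beside 7.24% of all genes tested. Over 6 libraries edgeR, DESeq2 and limma-voom each called 0 of 56, and the adjusted p of these 9 genes was 0.59 in edgeR. The median log2 fold change of the 56 genes was 0.053 over 5 libraries and 0.13 over 6. Over 6 libraries the groups separated upward in 14 of them and downward in 5, beside 12.1% and 12.6% of all genes. Over 5 libraries they separated upward in 20 and downward in 12, beside 18.3% and 19%.

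The counts by list that follow are over 5 libraries and stand beside 3.81% of all genes that rose and 3.43% that fell. Among 14 further target genes 9 were tested, 3 rose and 2 fell. Gja4, the gap junction gene of connexin 37, had 18.5, 20.5 and 29.1 CPM in controls and 34.3, 46.3 and 28.5 CPM with RBPMS, so that control replicate 3 reached the lowest RBPMS library (log2 fold change 0.91 ± 0.14 SE, adjusted p = 3.4e-04 over 5 libraries, and 0.68 ± 0.24 over 6). Efnb2, the arterial ephrin ligand, had 133, 148 and 103 CPM in controls and 157, 160 and 156 CPM with RBPMS (0.17 ± 0.051, adjusted p = 0.043, and 0.30 ± 0.15 over 6 libraries). Unc5b, a netrin receptor of arteries and sprouting vessels, rose by 0.18 ± 0.055 (adjusted p = 0.048, and 0.38 ± 0.20 over 6 libraries). Gja5, the connexin 40 gene of arteries, went the other way, with 49.2, 61.9 and 45.1 CPM in controls and 41.5, 49.1 and 37.2 CPM with RBPMS (-0.38 ± 0.099, adjusted p = 0.023, and -0.29 ± 0.16 over 6 libraries), and the groups overlapped once control replicate 3 was counted. Nrarp, a feedback inhibitor that Notch switches on, had 49.2, 46.8 and 48.1 CPM in controls and 41.6, 40.1 and 40.1 CPM with RBPMS. All RBPMS libraries were below all controls, control replicate 3 included (-0.24 ± 0.069, adjusted p = 0.038), with a log2 fold change of -0.24 also over 6 libraries (adjusted p = 0.59). Direction was mixed within these targets. The other Hes and Hey genes were at or near the detection limit: Hey2 had a mean of 1.08 CPM in controls and 1.00 CPM with RBPMS, and Heyl, Hes2, Hes5 and Hes7 were too low to be tested, as was Cxcr4.

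Of 9 genes of receptor glycosylation 8 were tested, 2 rose and 0 fell. Mfng, the Fringe enzyme that lengthens the fucose on Notch repeats, had 43.4, 48.1 and 54.6 CPM in controls and 58.4, 60.4 and 58.7 CPM with RBPMS, with no overlap (0.37 ± 0.068, adjusted p = 0.0016, and 0.28 ± 0.12 over 6 libraries). Eogt, which adds N-acetylglucosamine to these repeats, rose by 0.18 ± 0.049 (adjusted p = 0.030, and 0.35 ± 0.17 over 6 libraries). The related Fringe gene Lfng had a log2 fold change of -0.10 ± 0.072 over 5 libraries (adjusted p = 0.46) and -0.17 ± 0.11 over 6 (0.59). A further Fringe gene, Rfng, had 17.5, 18.6 and 17.2 CPM in controls and 16.2, 17.1 and 14.9 CPM with RBPMS, lower without overlap. It was not called (-0.16 ± 0.098 over 5 libraries, adjusted p = 0.37, and -0.14 ± 0.11 over 6, 0.60). In receptor processing 1 of 9 genes fell and 0 rose: Aph1a, a gamma-secretase subunit, had 104, 113 and 113 CPM in controls and 92.1, 99.3 and 92.4 CPM with RBPMS (-0.20 ± 0.054, adjusted p = 0.029, and -0.22 ± 0.098 over 6 libraries). Over 5 libraries the groups separated upward in 3 of the 9 and downward in 3, beside 18.3% and 19% of all genes. Aph1b was among the former (0.21 ± 0.078, adjusted p = 0.11, and 0.29 ± 0.12 over 6 libraries). Psen2 was among the latter (-0.31 ± 0.12, adjusted p = 0.12, and -0.54 ± 0.21 over 6 libraries). Neither was called. Of 11 genes of receptor turnover 10 were tested and 1 rose, the ubiquitin ligase gene Itch (113, 114 and 79.6 CPM in controls and 130, 131 and 136 CPM with RBPMS, 0.22 ± 0.048, adjusted p = 0.0058, and 0.37 ± 0.16 over 6 libraries).

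No gene was called among 6 of ligand endocytosis, 13 of the nuclear complex and its corepressors, or the 1 tested gene of 5 other ligand-like proteins. Epn1, the most abundant gene of ligand endocytosis, had a log2 fold change of 0.085 ± 0.050 (SE, adjusted p = 0.36), and the secreted Egfl7 had 0.14 ± 0.051 (SE, adjusted p = 0.12). Over 6 libraries Epn1 had 0.13 ± 0.10 (adjusted p = 0.61) and Egfl7 had -0.12 ± 0.20 (adjusted p = 0.78), with Egfl7 at 1127 CPM in control replicate 3. Over 5 libraries Egfl7 was called without RBPMS replicate 3 (0.18, adjusted p = 0.027) and with no filter on low counts (0.14, adjusted p = 0.029). Rbpj, the DNA-binding partner of the receptors, had 58.6, 60.2 and 47.2 CPM in controls and 53.6, 58.8 and 60.7 CPM with RBPMS (-0.042 ± 0.067 over 5 libraries, adjusted p = 0.79, and 0.061 ± 0.13 over 6, adjusted p = 0.82), so its sign turned with control replicate 3.

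Of these 9 calls, those of Gja4, Itch and Mfng held when any 1 RBPMS library was left out as well. Nrarp and Unc5b lost theirs without any 1 RBPMS library, and Eogt without RBPMS replicate 2. Gja5 and Aph1a lost theirs without RBPMS replicate 1 or 3, and Efnb2 without RBPMS replicate 1 or 2. Leaving out control replicate 1 or 2 left 1 control, so the spread of controls was not measured and only sizes are given. Without control replicate 1 the log2 fold change of Mfng was 0.30, that of Efnb2 0.10 and that of Unc5b 0.12. Without control replicate 2 that of Gja5 was -0.20 and that of Aph1a -0.13. Over all fits with 1 further library left out, the log2 fold change was 0.21 to 0.24 for Itch and 0.15 to 0.22 for Eogt. For Nrarp it was -0.28 to -0.21 and for Gja4 0.69 to 1.06. DESeq2 ended the calls of Gja5 (adjusted p = 0.28), Unc5b (0.091), Nrarp (0.067), Efnb2 (0.060) and Aph1a (0.056). Unc5b was not called with total library size (0.053) or limma-voom (0.060) either.

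**Figure D4:**
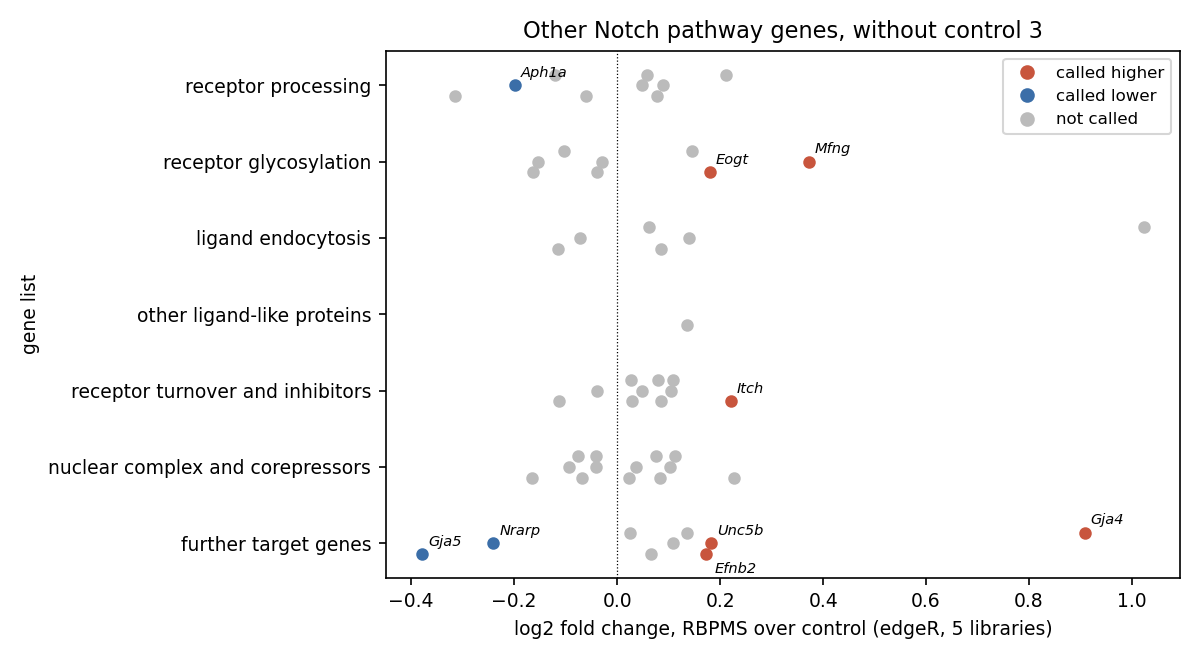
Log2 fold change (RBPMS over control, edgeR over 5 libraries) of the 56 tested pathway genes by list. Red points rose, blue points fell and grey points were not called. Gja4 (0.91) and Mfng (0.37) have the highest values among called genes and Gja5 (-0.38) the lowest, and the grey point near 1.02 is Neurl1a, at a mean under 1 CPM.

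The genes whose profile over the 6 libraries was most like that of Notch1 were Ttc28, Kmt2e, Stard9, Ubr4 and Slfn3, with a root mean square distance of 0.030 to 0.055 in centred log2 CPM among 9721 genes. In all of them control replicate 3 differed by -1.93 to -1.81 from the gene's own mean. That follows from the choice, since Notch1 itself differed by -1.87 there. Deposited lengths were 10444 to 22053 bases in 4 of the 5 (3411 in Slfn3). For Jag1 they were Dlc1, Irf2bpl, Enc1, Nox1 and Lpin3, with distances of 0.038 to 0.078. Likeness is a description over 6 libraries, with control replicate 3 among them.

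Exons of 5 of the 10 genes overlap exons of another annotated gene. In Notch1, Notch3, Dll1 and Dll4 that gene is on the opposite strand and in Notch2 on the same strand. Whether counting used the strand was not stated, so reads of such partners could be counted with these genes. Jag1, Jag2, Notch4, Hes1 and Hey1 have no such overlap of exons.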

How the data were processed

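The authors deposited whole-number counts per gene for 6 libraries of total RNA depleted of ribosomal RNA. FastQC, Salmon and the mm10 build are named, per the submitters' processing notes, without versions. Not given in the sources used here is the step from reads to counts. Gene lengths and coordinates are those of the deposited table. Groups, replicate numbers and columns were matched by sample title.

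Counts were analysed in R 4.3.3 with edgeR 4.0.16 (filterByExpr, TMM, quasi-likelihood test of group over all genes, adjusted p under 0.05), once over 6 libraries and once without control replicate 3. SEs were derived from the F statistic. Log2 CPM used a pseudocount of 0.5. DESeq2 1.42.0, limma-voom (limma 3.58.1), other scalings and filters, a length trend (loess span 0.3), a replicate block and leaving out each library were alternatives. The members, lists, naming rule and tests were chosen with earlier results of these data known. Named were all members, every called pathway gene, the most abundant gene of lists with none (1 such gene is not reported here), and the 5 nearest profiles (mean log2 CPM of at least 3) to Notch1 and Jag1. Rbpj, Lfng, Rfng, Aph1b, Psen2, Hey2, Neurl1a, untested Hes and Hey genes and Cxcr4 were added after their values were seen. So were the called endothelial markers beside Vwf.

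Within-group pairs of libraries differed by a chi-square per degree of freedom of at least 3.19, so no library was a copy. In simulated counts the test recovered 42%, 86% and 90% of genes changed 1.25, 1.5 and 2-fold over 5 libraries (20 false among 176 calls, 14123 genes), and 0%, 2% and 28% over 6 (2 false among 57, 13898 genes). Counts were drawn for each gene independently, so a shift shared by many genes, as in control replicate 3, was not simulated. In the deposited counts over 6 libraries edgeR called 0 genes, and Rbpms was 2.43-fold higher with an adjusted p of 0.061. The simulated shares may therefore not hold for these data.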

Additional observations from a re-analysis of the deposited data

How the results depend on the processing

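Over 6 libraries the count of called genes was 0 with edgeR, 5 with no filter on low counts, 56 with DESeq2 and 3 with the length trend taken out. Leaving out 1 library gave 0 to 1022 called genes, 0 to 1 called Notch genes and 0 to 9 called pathway genes, the higher value each time without control replicate 3. Over 5 libraries, leaving out 1 more gave 415 to 1017 called genes, 1 to 2 Notch genes and 3 to 6 pathway genes, and DESeq2 called 4 pathway genes in place of 9. In the fits without control replicate 1 or 2 as well, 1 control remained and the spread of controls was not measured. The replicate number as a block gave 917 called genes, and 2 Notch genes (Jag1 and Dll1, the latter with an adjusted p of 0.029), while Nrarp lost its call (adjusted p = 0.084). In that fit RBPMS replicate 3 had no control of its number and added nothing to the group difference. Its Dll1 call is thus close to that without RBPMS replicate 3. Same-numbered libraries correlated in their deviations from group means at 0.045, -0.032 and 0.0046, and not every library correlated best with its own number. The mean of the controls included control replicate 3, which shifts the deviations of all controls. These values therefore cannot decide whether libraries were paired. Over 6 libraries the block changed no call. Jag1 was called over 5 libraries under each of the 7 other settings (log2 fold change 0.48 to 0.50) and over 6 libraries under none of 8 (0.59 to 0.68, adjusted p 0.18 to 0.64). The difference between groups in the log2 ratio of Jag1 to Dll4 ran from 0.31 to 0.76 over all settings.

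The genes whose sign turned were not called by edgeR over 5 or 6 libraries. Over 6 libraries Notch4 had -0.11 with the length trend taken out, and leaving out 1 library gave -0.070 to 0.12 for Notch4, -0.50 to 0.0075 for Hes1 and -0.25 to 0.14 for Egfl7, with the sign turned without control replicate 3. Over 5 libraries values ran from -0.15 to 0.18 for Notch2, from -0.066 to 0.60 for Notch3, from -0.074 to 0.079 for Jag2 and from -0.094 to 0.12 for Hes1 when 1 more library was left out. The cause was not tested. No setting moved the median of all genes by more than 0.1 on the log2 scale. Depth limits Notch3 and Hey1.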
